A study of Mus musculus with 12 samples.

Results

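Immunoglobulin light chain variable segments were described in RNA from mouse bone marrow. The members were the genes whose symbol starts with Igkv or Iglv and whose counts summed to at least 120 over 12 libraries. Of 163 such genes in the table, 75 met this minimum, 72 of 160 Igkv genes and all 3 Iglv genes, out of 53801 genes in all. The members were thus chosen by their summed count over all 12 libraries, with no difference between groups in the choice. The mice were C57BL/6N, and 4 groups had 3 libraries each. MI-E mice had a myocardial infarction, made by ligating the LAD (a coronary artery), and were given EMPA. MI mice had the same ligation without EMPA, Sham-E mice a sham operation with EMPA, and Sham mice a sham operation alone. The study's title concerns naive B lymphocytes of the marrow and heart function after infarction. The sources used here give neither the time after the operation nor the dose of EMPA. The labels do not tie each library to its own mouse, so p-values measure the spread between these samples, which may be technical.

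Each antibody pairs a heavy chain with a kappa or a lambda light chain. A developing B cell in the marrow first makes a surrogate light chain, then joins 1 variable (V) segment to 1 joining (J) segment, and the joined exon is spliced to a constant region. Each B cell and its descendants thus carry mainly 1 light chain V segment, so V segment RNA in a tissue reports both how much light chain RNA there is and which B cell clones make it. Plasma cells, the antibody-secreting stage that lodges in the marrow, hold far more of this RNA per cell than naive B cells. Mouse kappa V segments lie in a long array on both strands before Igkj1, and the small mouse lambda locus joins Iglv1 mainly to Iglc1 and Iglc3, and Iglv2 mainly to Iglc2.

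Many segments are close copies, and reads of copies can be split between them by the counting. The 3′ ends of the coding part of 4 segments are shown because 2 of the 3 segments called below, Iglv2 and Igkv1-117, each have a close copy, Iglv1 and Igkv1-110, that was not called. Capitals mark bases that differ between the members of a pair. The sequences are 240 bases each, 5′ to 3′, from GENCODE M21 transcripts on mm10, at chr16:19085017-19085256 (Iglv1, minus strand), chr16:19260401-19260640 (Iglv2, minus strand), chr6:68271028-68271267 (Igkv1-110, plus strand) and chr6:68121588-68121827 (Igkv1-117, plus strand).
Iglv1: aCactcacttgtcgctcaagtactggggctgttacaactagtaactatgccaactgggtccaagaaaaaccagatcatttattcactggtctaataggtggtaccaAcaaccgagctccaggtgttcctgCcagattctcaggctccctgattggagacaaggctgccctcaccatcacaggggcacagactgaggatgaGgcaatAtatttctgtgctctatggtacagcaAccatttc
Iglv2: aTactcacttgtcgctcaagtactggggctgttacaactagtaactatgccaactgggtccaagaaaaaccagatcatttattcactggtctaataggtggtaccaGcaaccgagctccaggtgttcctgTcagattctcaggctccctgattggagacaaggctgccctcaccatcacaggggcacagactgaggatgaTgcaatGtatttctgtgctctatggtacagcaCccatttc
Igkv1-110: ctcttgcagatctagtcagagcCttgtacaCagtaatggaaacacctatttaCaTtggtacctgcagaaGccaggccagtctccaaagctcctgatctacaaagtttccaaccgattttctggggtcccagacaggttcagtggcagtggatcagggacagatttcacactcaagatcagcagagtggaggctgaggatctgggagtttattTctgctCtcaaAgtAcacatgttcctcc
Igkv1-117: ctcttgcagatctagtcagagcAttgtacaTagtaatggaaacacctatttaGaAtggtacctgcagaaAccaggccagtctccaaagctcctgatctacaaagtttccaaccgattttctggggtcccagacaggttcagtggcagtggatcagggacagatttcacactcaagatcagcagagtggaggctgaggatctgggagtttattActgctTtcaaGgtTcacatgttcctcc
Iglv1 and Iglv2 differ at 6 of these bases (97.5% matching), and Igkv1-110 and Igkv1-117 at 9 (96.2% matching). Over the whole transcript, 9.5% of the 75-base stretches of Iglv1 and 30.9% of those of Igkv1-117 occur unchanged in another segment. Among all 75 members, 38 matched their nearest segment at 95% identity or more, 25 shared no 75-base stretch, and in 1 (Igkv6-20) 59.5% of the stretches were shared.

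All 75 members are annotated as functional V genes and all passed the filter on low counts. The Igkv members lie on chromosome 6 from 67555497 to 70704177 (mm10), 18.4 to 3166.3 kb from Igkj1, and the Iglv members on chromosome 16. Each library held 2396 to 8344 Igkv counts and 272 to 1904 Iglv counts, out of 21175087 to 24606783 counts in all. The members just inside the minimum were Igkv4-90 (127 counts over all libraries), Igkv8-16 (129) and Igkv9-123 (136). Just outside were Igkv11-125 (116), Igkv10-95 (97) and Igkv9-129 (84). The 88 genes below the minimum held 0.892% to 2.41% of light chain V counts in a library, and 43 of them had no count in any library, where a count of 0 allows up to 3 counts per library. All 9 J segments of the kappa and lambda loci, 38 to 43 bases long, also had no count.

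Levels between segments differed widely. By mean TPM, which allows for length, Igkv1-110 (309 TPM) and Igkv1-117 (241 TPM) were highest, followed by Igkv10-96 (174), Iglv1 (167), Iglv2 (138), Igkv1-135 (105), Igkv9-120 (87.4) and Igkv15-103 (86.1). The median member had 29.9 TPM and the lowest 5.20 TPM. Igkv1-110 and Igkv1-117 together held 23.7% of Igkv counts, and the 12 segments with most counts held 51.6% of the members' counts. Of the 16 Igkv families among the members, Igkv1 held 30.7% of Igkv counts with 7 members, Igkv4 held 10.4% with 17 and Igkv6 held 10.3% with 8.

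Several library properties touch the results below. RNA of bone marrow lineages was present throughout, with summed levels of 8 mature neutrophil genes from 21272 to 38345 CPM (counts scaled to a common, TMM-adjusted library size) and Ms4a1, which encodes the B cell antigen CD20, from 41.3 to 152 CPM. Sham-E 1 stood apart: Rag1, a subunit of the recombinase that joins V to J, had 1.21 CPM there against 23.4 to 259 CPM in the other libraries, and Igll1, part of the surrogate light chain, had 0.13 CPM against 5.29 to 50.8 CPM. Its summed Igkv level (248 CPM) lay within the range of the other libraries. The mean insert length, recovered from the deposited counts and TPM, was 263.2 to 265 bp in the MI libraries and 271.4 to 286.7 bp in the other 9. Inserts were also shorter in Sham-E (271.4 to 280.2 bp), without overlap with Sham (283.9 to 286.7 bp). Insert length therefore cannot be told apart from group in MI against Sham, in MI-E against MI, in Sham-E against Sham or in the interaction built from them.

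The comparison of MI with Sham asks what infarction changed. Summed light chain V segment RNA was lower in MI than in Sham marrow, for kappa and for lambda. MI 1, 2 and 3 had summed Igkv levels of 203, 173 and 118 CPM, against 276, 308 and 261 CPM in Sham 1, 3 and 4. No MI library reached any Sham library, and the MI mean of 165 ± 43.3 CPM was 0.586 of the Sham mean of 281 ± 24.1 CPM (SD, n = 3 each). Summed Iglv levels were 15.6, 23.8 and 13.4 CPM in MI, against 32.1, 78.1 and 44.6 CPM in Sham. The groups again did not overlap, and the ratio of means was 0.341. Unlike Igkv, summed Iglv levels in MI overlapped those in MI-E (13.9 to 24.8 CPM) and Sham-E (14.8 to 43.3 CPM). Sham had the highest Iglv mean (51.6 CPM). In whole marrow, fewer B-lineage cells, less light chain RNA per cell and the shorter inserts of the MI libraries cannot be told apart. Igkc, given below, overlapped between these groups.

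**Figure D1:**
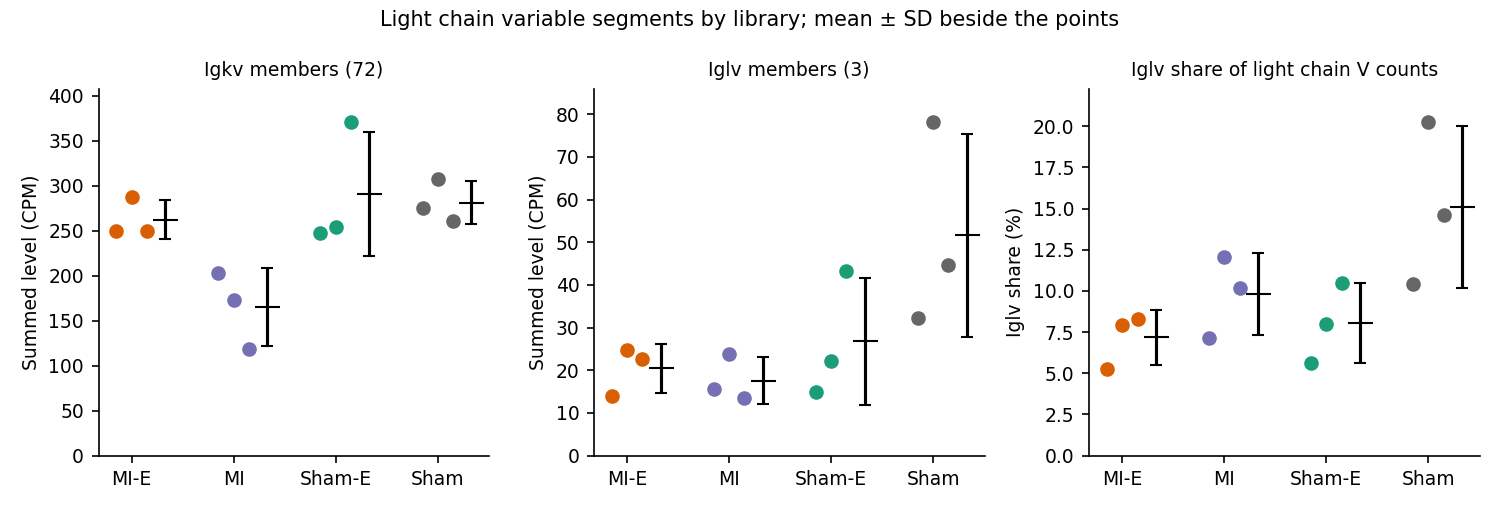
Summed level of the 72 Igkv members (left), summed level of the 3 Iglv members (middle), both in CPM, and Iglv share of light chain V counts in percent (right), for each of the 12 libraries by group; black bars give the mean ± SD of 3 libraries. The MI libraries (118 to 203 CPM) had lower Igkv levels than every other library (248 to 371 CPM), while the Iglv share was 10.4% to 20.2% in Sham and 5.28% to 12.1% elsewhere.

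By edgeR's quasi-likelihood test over 15119 genes, 3 of the 75 members were called at an adjusted p under 0.05, all lower in MI, where 0.192% of all genes tested were called lower and 0.417% in either direction. At an unadjusted p under 0.05, 21 members were lower (8.61% of all genes) and 0 were higher (10.9%). The 21 lower members include Igkv4-90, which lay just inside the minimum and had its highest mean level in Sham. Log2 fold changes were negative in 70 of 75 members (47.6% of all genes), with a median of −0.77 against 0.02 over all genes. In 23 members (30.7%) every MI library was below every Sham library, as in 13.8% of all genes. The members share B cells, libraries and in part reads, so they are not independent of each other.

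**Figure D2:**
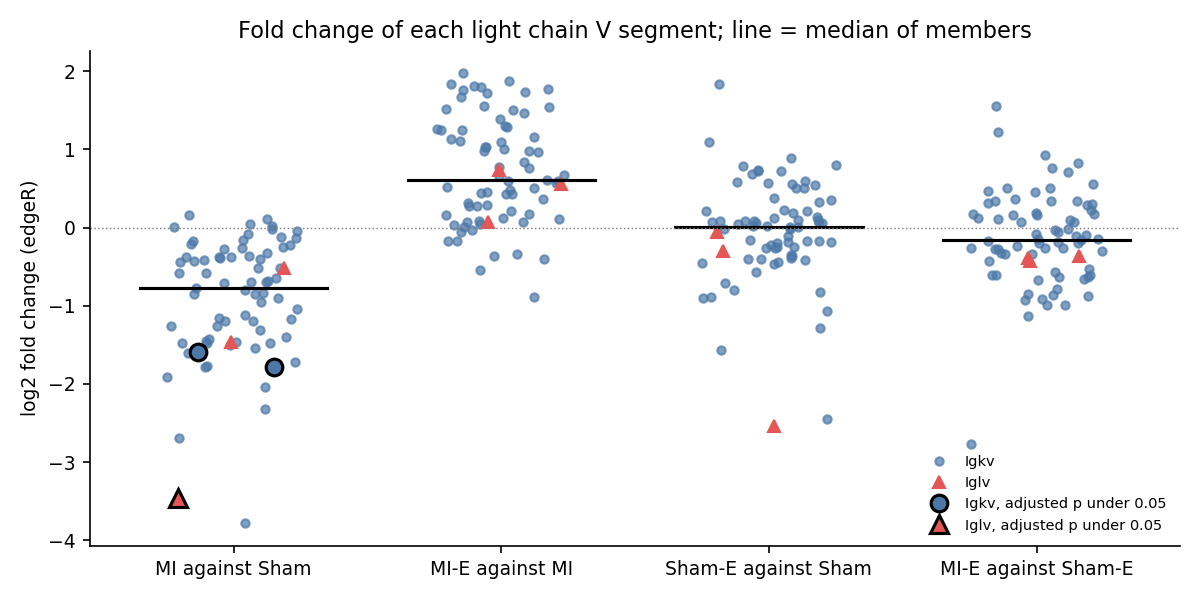
Log2 fold change from edgeR (y axis) of each of the 75 members in 4 comparisons (x axis); circles are Igkv and triangles Iglv members, large outlined symbols have an adjusted p under 0.05, and lines give the median of the members. Medians were −0.77 for MI against Sham, 0.61 for MI-E against MI, 0.01 for Sham-E against Sham and −0.16 for MI-E against Sham-E.

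The called segments were Iglv2, Igkv2-137 and Igkv1-117. Iglv2 (ENSMUSG00000076940, chr16:19260401-19260859), 1 of the 3 mouse lambda V genes, had 2.31, 2.13 and 3.30 CPM in MI 1, 2 and 3, against 13.1, 52.0 and 19.9 CPM in Sham 1, 3 and 4. It fell with a log2 value of −3.46 ± 0.55 (± SE; edgeR adjusted p = 0.0329). Every MI library was below every Sham library, but Sham 3 alone held 1267 of the 2841 Iglv2 counts, and without it the change was −2.70 (edgeR adjusted p = 0.106). Its close copy Iglv1 had 11.8, 19.8 and 9.42 CPM in MI against 15.5, 21.3 and 21.7 CPM in Sham, ranges that overlapped (−0.51 ± 0.44, edgeR adjusted p = 0.540). With the pair summed, the change was −1.56 ± 0.47 (edgeR adjusted p = 0.116). Iglv3, the most distant of the lambda segments, was lower in every MI library (0.690 to 1.88 CPM) than in every Sham library (2.94 to 4.84 CPM) and did not pass the test (−1.47 ± 0.38, edgeR adjusted p = 0.0786).

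Igkv1-117 (ENSMUSG00000094335, chr6:68121046-68121827), the kappa segment second in level, had 12.8, 9.76 and 7.54 CPM in MI, against 44.2, 20.8 and 39.0 CPM in Sham. It fell by −1.78 ± 0.32 (log2 ± SE; edgeR adjusted p = 0.0385), with no overlap. Its close copy Igkv1-110 had 35.04, 28.8 and 18.5 CPM in MI against 27.2, 40.8 and 31.8 CPM in Sham, and these overlapped (−0.28 ± 0.22, edgeR adjusted p = 0.513). Igkv2-137 (ENSMUSG00000076501, chr6:67555497-67556216), the member farthest from Igkj1, shares no 75-base stretch with another segment. It had 1.72, 2.18 and 1.38 CPM in MI against 5.71, 4.68 and 5.59 CPM in Sham and fell by −1.60 ± 0.28 (log2 ± SE; edgeR adjusted p = 0.0367). None of these calls was stable to leaving out single libraries: 0 members were called without MI 3, Sham 1, Sham 4, Sham-E 2, MI-E 2 or MI-E 4, 1 without MI 1, Sham 3 or MI-E 3, and 8 without Sham-E 1. DESeq2 called 12 members and limma on TPM 14, all lower in MI and the 3 named here among them.

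**Figure D3:**
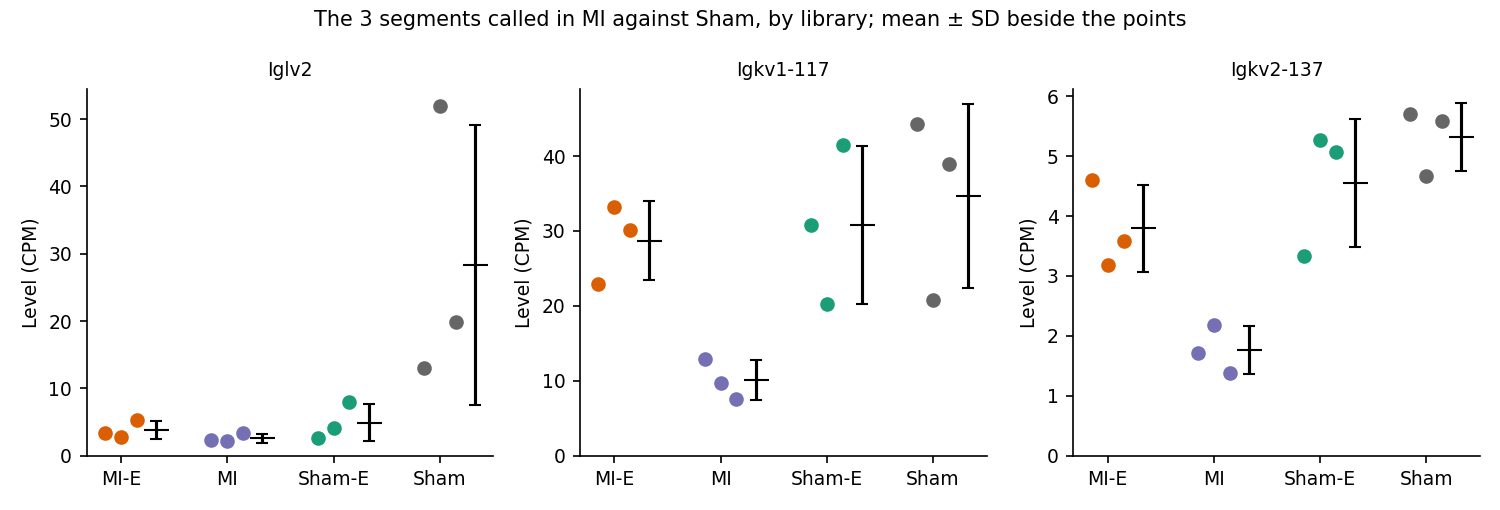
Level in CPM (y axis) of Iglv2, Igkv1-117 and Igkv2-137 in each library by group; black bars give the mean ± SD of 3 libraries. Iglv2 was 13.1 to 52.0 CPM in Sham and at most 7.90 CPM elsewhere, whereas Igkv1-117 and Igkv2-137 were lowest in the MI libraries. Igkv1-117 overlapped among the other groups. Igkv2-137 in Sham-E overlapped MI-E and Sham, but all MI-E libraries (3.19 to 4.61 CPM) were below all Sham libraries (4.68 to 5.71 CPM).

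Other segments with small p-values were not called. Igkv1-122 had 0.252, 0.396 and 0.493 CPM in MI against 5.71, 0.615 and 9.44 CPM in Sham (−3.78 ± 0.76, edgeR adjusted p = 0.0534), so 2 Sham libraries set its mean. Igkv5-48 changed by −2.69 ± 0.55 (log2 ± SE; edgeR adjusted p = 0.0540). The members with the smallest p among the 5 with a positive value were Igkv4-59, Igkv8-28, Igkv16-104 and Igkv10-96, at log2 fold changes of 0.02 to 0.16, with no adjusted p (edgeR) below 0.845; all 4 changed sign under some other settings. With segments summed by family, 0 Igkv families were called. The smallest adjusted p-values (edgeR, 0.0610 each) belonged to Igkv5 (−1.77 ± 0.39) and Igkv17 (−0.88 ± 0.19). The 4 Igkv5 members held 2.68 ± 0.61% of Igkv counts in MI and 5.34 ± 1.74% in Sham (SD, n = 3 each), without overlap. The family test summed all 6 Igkv5 genes, those below the minimum too. Shares of Igkv9 (4.57% in MI and 3.11% in Sham in the mean) and Igkv16 (1.87% and 1.11%) did not overlap either, and both were higher in MI. The shares of all other families overlapped.

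Constant regions, which are not members, were set beside the V segments. Igkc, the kappa constant region, had 654, 615 and 391 CPM in MI, against 592, 681 and 598 CPM in Sham, and these ranges overlapped (−0.17 ± 0.23, edgeR adjusted p = 0.709). MI libraries held 31.1, 28.2 and 30.2 Igkv counts per 100 Igkc counts, against 46.6, 45.2 and 43.5 in Sham. All MI libraries were below all 9 other libraries (42.5 to 56.8). The heavy chain gave no such gap, with 7.51 to 8.49 Ighv counts per 100 heavy constant region counts in MI and 7.66 to 8.48 in Sham. Iglc2 had 26.5, 24.2 and 17.5 CPM in MI against 49.7, 110 and 44.6 CPM in Sham (−1.59 ± 0.32, edgeR adjusted p = 0.0549), and Iglc3 changed by −1.09 ± 0.25 (edgeR adjusted p = 0.0629). Iglc1 changed by −0.42 ± 0.37 (edgeR adjusted p = 0.555).

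**Figure D4:**
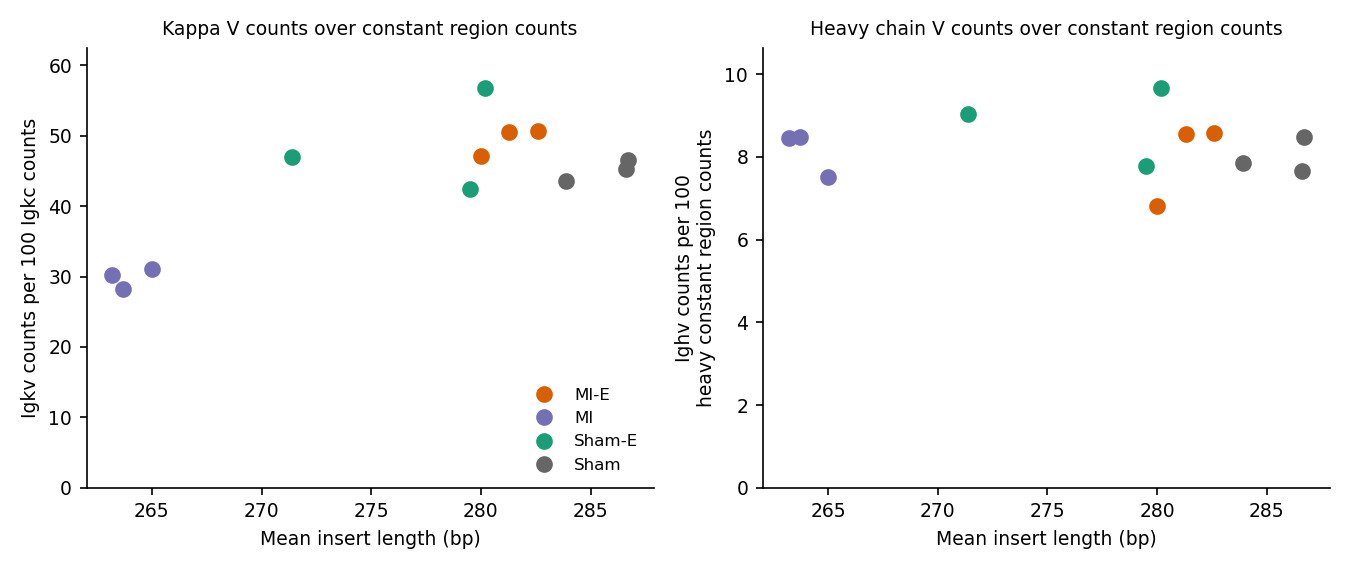
Igkv counts per 100 Igkc counts (left) and Ighv counts per 100 heavy chain constant region counts (right) on the y axes against the mean insert length of each library in bp (x axis), coloured by group. The MI libraries have the shortest inserts (263.2 to 265 bp) and the lowest kappa ratios (28.2 to 31.1), and the heavy chain ratio of MI lies within the range of the other groups.

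The annotated transcripts of the members are short, 347 to 501 bases. The median effective length of the members, the number of positions at which a fragment can start, was 104.1 to 107.3 bases in MI libraries and 85.3 to 99.5 bases in the other 9. In TPM, which divides by this length, summed Igkv in MI against Sham had a log2 ratio of −1.20, against −0.77 in CPM. The part of insert length in the lower V counts of MI was not tested.

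The comparison of MI-E with MI asks what EMPA changed after infarction. Igkv levels were higher in MI-E marrow. Summed Igkv levels were 249, 288 and 250 CPM in MI-E 2, 3 and 4, against 203, 173 and 118 CPM in MI, with no overlap (means 262 ± 22.1 and 165 ± 43.3 CPM, SD, n = 3 each, ratio 1.59). Summed Iglv levels overlapped, at 13.9, 24.8 and 22.7 CPM in MI-E against 15.6, 23.8 and 13.4 CPM in MI. Igkv counts per 100 Igkc counts were 50.5, 47.1 and 50.7 in MI-E, against 31.1, 28.2 and 30.2 in MI. Insert length moved with group here too (280 to 282.6 bp in MI-E), and MI against Sham and MI-E against MI share the MI libraries, so the second is not independent of the first.

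By edgeR, 0 of 75 members were called in MI-E against MI, where 0.00661% of all genes were called, higher in MI-E. At an unadjusted p under 0.05, 22 members were higher (8.52% of all genes) and 0 lower (8.88%). The fold change was positive in 66 of 75 (47.6% of all genes), with a median of 0.61 against −0.02 over all genes, and in 22 members all MI-E libraries exceeded all MI libraries (11.6% of all genes), with 0 the other way (10.1%). DESeq2 called 8 members and limma on TPM 2, all higher in MI-E; with edgeR, 4 members were called without MI 1 and 1 without Sham-E 1.

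Igkv3-2, the segment with the smallest p, had 4.06, 4.0 and 3.32 CPM in MI-E, against 1.30, 1.44 and 1.13 CPM in MI. The groups did not overlap, and the change of 1.55 ± 0.27 (log2 ± SE) missed the threshold with edgeR (adjusted p = 0.0847). Igkv1-117 had 22.9, 33.1 and 30.1 CPM in MI-E, against 12.8, 9.76 and 7.54 CPM in the MI libraries (1.51 ± 0.32, edgeR adjusted p = 0.0962). Igkv2-137 had 4.61, 3.19 and 3.59 CPM in MI-E, against 1.72, 2.18 and 1.38 CPM in the MI libraries (1.11 ± 0.28, edgeR adjusted p = 0.117). All MI-E libraries exceeded all MI libraries in both. Igkv3-5 (1.97 ± 0.53), Igkv5-43 (1.54 ± 0.43) and Igkv5-48 (1.84 ± 0.54) followed, with edgeR adjusted p-values of 0.126, 0.135 and 0.143. Iglv2, the member with the largest drop among those called in MI, had 3.34, 2.81 and 5.27 CPM in MI-E and overlapped MI (0.56 ± 0.54, edgeR adjusted p = 0.621). The members with the smallest p among those with a negative value were Igkv5-45, Igkv3-7, Igkv1-88 and Igkv8-30, from −0.89 to −0.34 with edgeR adjusted p of 0.621 or more.

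Sham-E against Sham asks what EMPA changed without infarction, and here the summed levels overlapped. Summed Igkv levels were 248, 255 and 371 CPM in Sham-E 1, 2 and 3, against 276, 308 and 261 CPM in Sham. The log2 ratio of the means was 0.05, with 0.15 without Sham-E 1 and −0.16 without Sham-E 3. By edgeR 0 members were called (0% of all genes), 1 was higher and 2 lower at an unadjusted p under 0.05 (1.22% and 0.681% of all genes), and the median was 0.01. Fold changes were positive in 39 members (52.5% of all genes) and negative in 36 (47.5%), and the libraries did not overlap in 3 members that were higher (4.52%) and 3 that were lower (4.46%). Igkv1-122 (−2.44 ± 0.68, edgeR adjusted p = 1.00) and Igkv1-88 (1.83 ± 0.74, edgeR adjusted p = 1.00) had large values with overlapping libraries. The smallest p was that of Iglv2, at 2.64, 4.15 and 7.90 CPM in Sham-E against 13.1, 52.0 and 19.9 CPM in Sham, without overlap (−2.53 ± 0.53, edgeR unadjusted p = 0.000477, adjusted p = 1.00). Among lambda counts, Iglv2 made up 24.0, 11.3 and 23.2% in MI-E, 14.8, 8.96 and 24.6% in MI, 17.8, 18.7 and 18.2% in Sham-E, and 40.7, 66.5 and 44.7% in Sham. The 3 Sham libraries thus stood above the other 9. DESeq2 called 1 member in Sham-E against Sham, Iglv2.

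In MI-E against Sham-E, summed Igkv levels overlapped (262 ± 22.1 CPM in MI-E and 291 ± 69.0 CPM in Sham-E, SD, n = 3 each), with a log2 ratio of −0.15, which was −0.25 without Sham-E 1 and 0.06 without Sham-E 3. No member was called by edgeR (0% of all genes), and at an unadjusted p under 0.05 1 was higher and 3 lower (5.99% and 7.45% of all genes). Fold changes were positive in 29 members (50.4% of all genes) and negative in 46 (49.6%), and the libraries did not overlap in 2 higher (11.7%) and 4 lower members (12.2%). DESeq2 called 1, Igkv1-88, which had 1.27, 1.14 and 0.546 CPM in MI-E against 15.9, 1.40 and 3.02 CPM in Sham-E, where the library that stands apart, Sham-E 1, sets the mean. The interaction, which takes the EMPA difference of the sham groups from that of the infarcted groups, asks whether EMPA acted differently after infarction. By edgeR it called 0 members (0.00661% of all genes). At an unadjusted p under 0.05, 14 were positive and 1 negative (6.22% and 7.28% of all genes), and over all p-values 63 were positive (47%) and 12 negative (53%), with a median of 0.65. Igkv3-2 (2.02 ± 0.38, edgeR adjusted p = 0.221) and Iglv2 (3.09 ± 0.74, edgeR adjusted p = 0.254) led it. DESeq2 called 4 members in the interaction, Igkv3-2, Iglv2, Igkv1-122 and Igkv1-117, all positive.

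Kappa dominated lambda in every library, as is usual in mice. The lambda share of V counts was 5.28, 7.93 and 8.32% in MI-E, 7.13, 12.1 and 10.2% in MI, 5.64, 8.02 and 10.5% in Sham-E, and 10.4, 20.2 and 14.6% in Sham. Wilson 95% intervals, which cover counting error only, extended by at most 1.15 percentage points to either side, taking the mean of both sides. The 2 highest values were those of Sham 3 and Sham 4, and the groups overlapped in every comparison. The lambda share of constant region counts (Iglc1 to Iglc3 over those plus Igkc) was 12.5, 14.2 and 15.1% in MI-E, 7.41, 9.81 and 8.88% in MI, 11.1, 12.0 and 10.5% in Sham-E, and 13.2, 19.8 and 13.2% in Sham. The 2 readouts thus ordered the groups differently: MI-E was above MI by constant regions (by 5.24 percentage points, with no overlap) and below MI in the mean by V segments (a difference of −2.62 points, with overlap). Constant region shares of MI minus Sham differed by −6.71 points, of Sham-E minus Sham by −4.17 and of MI-E minus Sham-E by 2.70. Without Sham 3, the library with the highest share, the first was −4.52 and the second −1.98 points. Each of the 4 differences had an exact two-sided permutation p of 0.1, the smallest that 3 against 3 libraries allow, and 0.1 after adjustment over the 4. Iglv counts per 100 Iglc counts were 19.6, 24.5 and 25.9 in MI-E, 29.8, 35.6 and 35.2 in MI, 27.2, 27.0 and 46.7 in Sham-E, and 35.6, 46.5 and 49.0 in Sham, so the lambda ratio was lower in MI-E than in MI, unlike the kappa ratio.

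The evenness of the kappa repertoire overlapped between the groups. The effective number of Igkv segments (the inverse Simpson index, which equals the number of segments if all had the same share) was 21.6 ± 2.04 in MI-E, 20.5 ± 2.53 in MI, 23.0 ± 3.76 in Sham-E and 22.2 ± 3.98 in Sham (SD, n = 3 each), with overlap in every comparison. Igkv1-110 held the largest share of Igkv counts in 9 libraries and Igkv1-117 in Sham-E 3, Sham 1 and Sham 4. Igkv1-117 held 9.17, 11.5 and 12.1% of Igkv counts in MI-E, 6.31, 5.63 and 6.39% in MI, 12.4, 7.97 and 11.2% in Sham-E, and 16.05, 6.77 and 14.96% in Sham. Igkv1-110 held 17.2, 12.6 and 12.8% in MI-E, 17.2, 16.6 and 15.7% in MI, 14.7, 12.2 and 10.5% in Sham-E, and 9.88, 13.2 and 12.2% in Sham. MI libraries were thus all above Sham libraries in the Igkv1-110 share and all below them in the Igkv1-117 share. Over the whole set of Igkv shares, the share that would have to move between segments to turn 1 library into another had a median of 17.2% within MI-E, 21.6% within MI, 22.2% within Sham-E and 23.4% within Sham. It was 27.0% between MI and Sham, 24.2% between MI and Sham-E and 23.3% between MI-E and MI. Between the groups other than MI it was 21.2% (Sham-E and Sham), 18.6% (MI-E and Sham-E) and 18.5% (MI-E and Sham). MI libraries held the fewest Igkv counts (2396 to 4849), and counting error raises this measure where counts are low.

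Shares by distance from Igkj1 overlapped between the groups, and shares by strand did so in part. The 22 members over 2 Mb from Igkj1 held 51.6% to 60.7% of Igkv counts in a library, and the 29 members within 1 Mb held 26.2% to 33.5%. The 28 members on the same strand as Igkj1, which join by deletion of the DNA in between, held 58.6% to 60.5% in MI-E, 52.4% to 56.3% in MI, 50.2% to 57.6% in Sham-E and 56.0% to 61.3% in Sham. MI-E libraries were above MI and Sham-E libraries in this share, by 4.61 and 5.46 percentage points in the means.

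**Figure D5:**
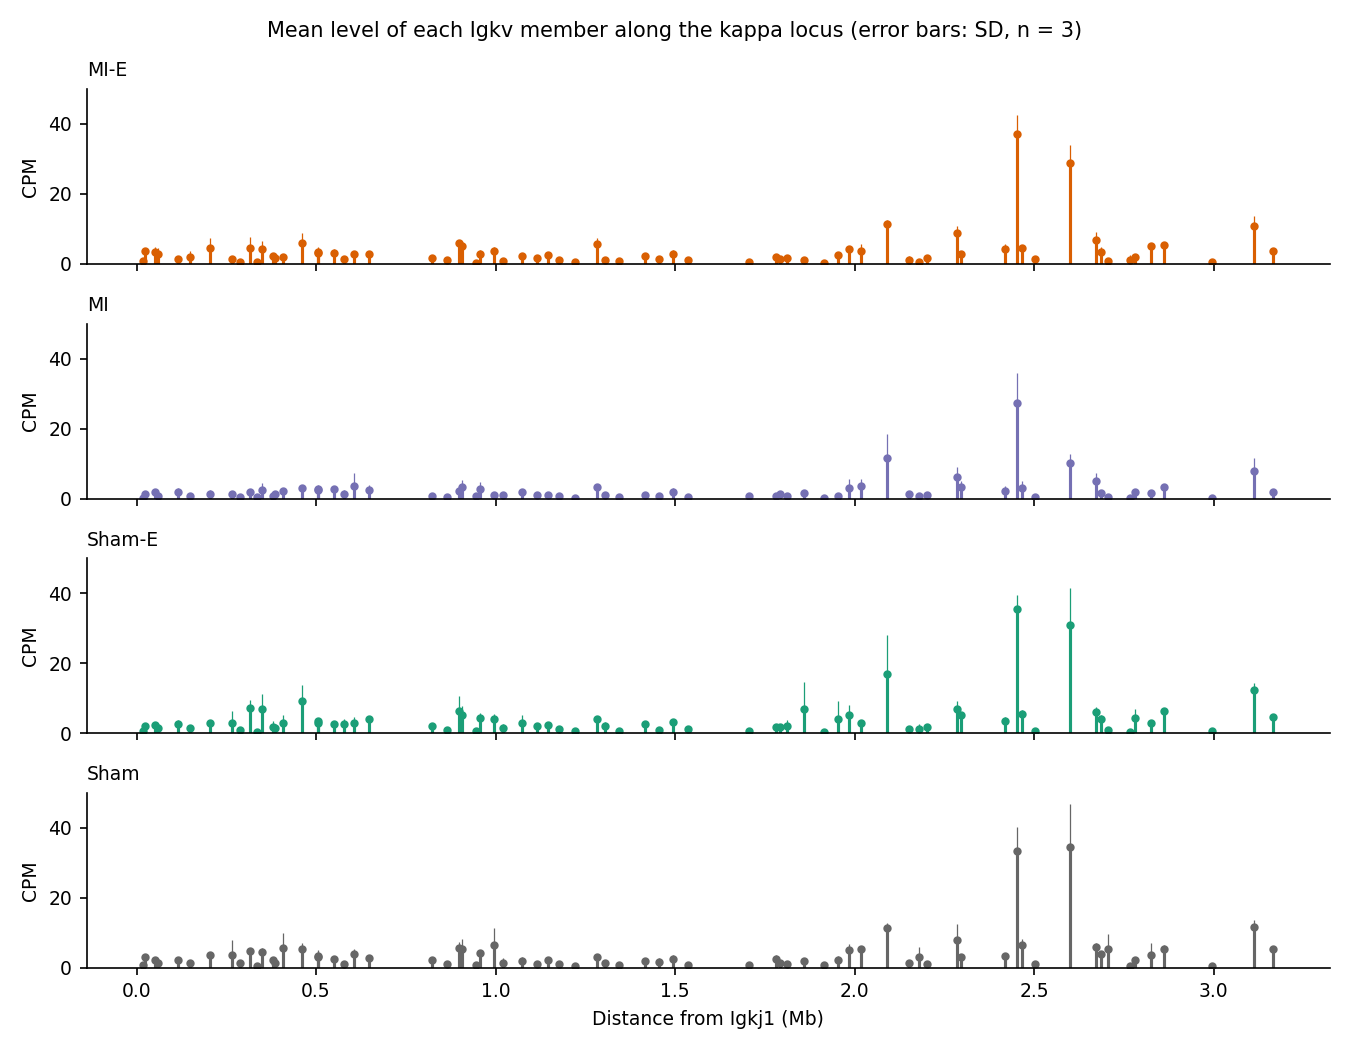
Mean level in CPM (y axis) of each of the 72 Igkv members against its distance from Igkj1 in Mb (x axis), by group; error bars are the SD of 3 libraries. Igkv1-110 and Igkv1-117 are the tallest members in MI-E, Sham-E and Sham, and Igkv1-110 and Igkv10-96 in MI. Igkv1-117 is lower in MI (10.05 ± 2.66 CPM) than in the other groups (28.7 to 34.7 CPM in the mean).

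Single libraries carried high levels of single segments. In 10 cases a member with at least 50 counts exceeded 4 times the median of the other 11 libraries, and 7 of these were in Sham, 2 in Sham-E, 1 in MI-E and 0 in MI. Sham 3 alone held 4 of them. The bound of 50 counts was harder to reach in MI libraries, with 2396 to 4849 Igkv counts against 6468 to 7503 in Sham, so these numbers do not compare the groups. Igkv9-123 in MI-E 3 (57 of its 136 counts) met the minimum count only through that library. Members outside these 10 cases also needed their highest library to meet it. They were Igkv4-90 (34 of 127, Sham 3), Igkv8-16 (21 of 129, Sham-E 3), Igkv4-58 (24 of 143, Sham 3) and Igkv1-133 (31 of 148, Sham-E 3). Igkv4-90 had 7, 34 and 25 counts in Sham against 5, 9 and 1 in MI, so its choice rested on Sham. The largest of the 10 cases were Iglv2 in Sham 3 (52.0 CPM, 15.6 times the median), Igkv1-122 in Sham 4 (9.44 CPM, 12.9 times), Igkv1-88 in Sham-E 1 (15.9 CPM, 11.4 times) and Igkv1-99 in Sham 3 (6.27 CPM, 10.6 times). Sham 3, the library with most Iglv2, also had the most Iglc2, at 110 CPM against 17.5 to 51.5 CPM in the other 11. Sham 1 and Sham 4, also high in Iglv2 share, did not stand apart in Iglc2 (49.7 and 44.6 CPM, against 51.5 CPM in MI-E 3). The Iglc2 share of lambda constant region counts in Sham overlapped that of each other group.

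Genes of light chain assembly and of B-lineage stages were read from the same edgeR fit, and none of those below was called in any comparison. In MI against Sham, 25 of 29 genes of light chain rearrangement and transcription had a negative value (median −0.29), led by Xrcc6, a DNA end-joining factor (−0.97 ± 0.23, edgeR adjusted p = 0.0671), and Ikzf3, a lymphoid transcription factor (−0.79 ± 0.20, edgeR adjusted p = 0.0738). All 11 surrogate light chain and pre-B genes had one too (median −1.39), as did 17 of 19 mature B genes (median −0.55) and 15 of 21 plasma cell genes (median −0.56). Over all genes tested, 47.6% had a negative value (median 0.02). The genes of a list share cells and libraries, so they are not independent of each other. Cd79a, the signalling partner of surface antibody, had 138, 98.9 and 76.1 CPM in MI against 221, 338 and 236 CPM in Sham (−1.34 ± 0.30, edgeR adjusted p = 0.0607). Sdc1, a plasma cell surface marker, had 5.50, 8.37 and 6.56 CPM in MI against 18.8, 22.4 and 20.1 CPM in Sham (−1.59 ± 0.37, edgeR adjusted p = 0.0668). Other plasma cell genes had positive values without overlap, among them Xbp1, a transcription factor of secretory cells (0.58 ± 0.24, edgeR adjusted p = 0.210), Tnfrsf13b (0.37 ± 0.17, edgeR adjusted p = 0.247) and Fkbp11 (0.91 ± 0.50, edgeR adjusted p = 0.327). The mean log2 level of the mature B list was 5.79 to 6.41 in MI and 6.52 to 7.04 in Sham, and that of the plasma cell list 4.33 to 4.83 in MI and 4.94 to 5.07 in Sham. These levels moved with the V segments, and their part in the V result was not tested.

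In MI-E against MI, all 19 mature B genes had positive values (median 0.48), led by Cd22, an inhibitory receptor (0.77 ± 0.19, edgeR adjusted p = 0.115), and Cxcr5, a follicle homing receptor (0.78 ± 0.20, edgeR adjusted p = 0.122). Plasma cell genes were positive in 16 of 21 (median 0.20). Over all genes tested, 47.6% were positive and 52.4% negative (median −0.02). Surrogate light chain and pre-B genes were negative in 8 of 11 (median −0.11), and Rag1 had 46.6, 36.5 and 32.6 CPM in MI-E against 23.4, 110 and 34.6 CPM in MI. Igll1 was lower in every MI-E library (5.29 to 7.57 CPM) than in every MI library (9.53 to 22.7 CPM), with a log2 value of −1.29 ± 0.98 (edgeR adjusted p = 0.522). In Sham-E against Sham the surrogate light chain and pre-B genes were negative in 11 of 11 (median −0.70). Their mean log2 level was 2.93 in Sham-E 1 and 5.16 in both other Sham-E libraries, against 5.23 to 5.47 in Sham. Mature B genes were positive in 11 of 19 (median 0.18). Over all genes tested in this comparison, 52.5% were positive and 47.5% negative (median 0.01).

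Outside the immunoglobulin loci, genes whose log2 level followed the summed Igkv level closely over the 12 libraries included Rbm10 (Pearson r = 0.955), Zfp444 (0.939), Gga2 (0.932) and Tlr11 (0.926). Rbm10 is a regulator of splicing. Tlr11 was near the floor, with a mean of 0.60 CPM and 0 CPM in MI 3, so its correlation rests on few counts. These 4 genes had their lowest level in MI 3, the library with the lowest Igkv level. These values describe 12 libraries that share 4 groups and were chosen from the highest among all genes tested, so they carry no test.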

How the data were processed

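The authors sequenced total RNA of bone marrow from 12 samples (miRNeasy isolation, per the labels). Tools named in the submitters' processing notes are STAR 2.4.0j, CASAVA 1.8 and RSEM, with build mm10. The authors deposited expected counts per gene, unscaled, and TPM values, which are scaled by effective transcript length and to a common total. RSEM splits reads that match several genes, so levels of near-identical V segments are uncertain, and whether the libraries keep strand is not given in the sources used here. The deposited column numbers of Sham (1, 3 and 4) and MI-E (2, 3 and 4) differ from the sample titles, so those columns were matched to their group only. Libraries are named by group and column number.

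Expected counts were rounded to whole numbers. The quasi-likelihood test of edgeR 4.0.16, run in R 4.3.3, with TMM scaling and filterByExpr, was fitted to all 12 libraries with 4 group means and 8 residual degrees of freedom, and p-values were adjusted by Benjamini-Hochberg over the 15119 genes tested. Standard errors were taken as the fold change (log2) divided by the root of the F statistic. CPM values are counts over the TMM-scaled library size. Sums, shares and repertoire measures over the members carry no p. The insert length came from the regression of counts over TPM on transcript length. The fit was also run on simulated data with independent genes and the same dispersion for every gene. The members share reads and differ in spread, so that run does not speak to them. Positions, lengths and sequences came from GENCODE M21, and identities from biopython 1.88. Named segments were the lambda members, the highest by TPM, those with the smallest p per comparison, the most counted in each library and those at the edge of the minimum; Igkv1-99, Igkv6-20 and the other segments singled out for a high value in 1 library or a high overlap, and Igll1, Xbp1, Tnfrsf13b and Fkbp11, were chosen after their values were seen. The members, gene lists and tests were chosen with earlier results of these data known. The genes most like the summed Igkv level were the highest by Pearson correlation of log2 CPM, of which some are not reported here. Alternatives were other scalings, no filter, DESeq2 1.42.0, limma 3.58.1 on log2(TPM + 0.1), a fit to the groups compared, a replicate block, and each library left out in turn. Segments summed by family and Igkv per Igkc were chosen after seeing the data.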

Additional observations from a re-analysis of the deposited data

Results flagged for a closer look

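The lambda share of light chain constant region counts differed in opposite directions with EMPA in the 2 operations. It was higher in every MI-E library (12.5, 14.2 and 15.1%) than in every MI library (7.41, 9.81 and 8.88%), and lower in every Sham-E library (11.1, 12.0 and 10.5%) than in every Sham library (13.2, 19.8 and 13.2%). The MI-E minus MI difference exceeded the Sham-E minus Sham difference by 9.41 percentage points. The measure was singled out by this gap, so no p is given for it. Without Sham 3, the Sham-E minus Sham difference was −1.98 points in place of −4.17. Mean insert length moved in the same directions without overlap, by 17.3 bp in MI-E minus MI and by −8.7 bp in Sham-E minus Sham, and its part in this result was not tested. Constant regions are not among the members, and the measure was 1 of several read in these libraries. Iglc2 made up 65.8% of lambda constant region counts in Sham 3, against 36.1% to 58.1% in the other 11 libraries.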

How the results depend on the processing

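Of the single-gene values under other settings, 977 kept their direction and side of the threshold, 35 passed it newly, 29 no longer passed and 27 changed sign; the causes were not tested. In MI against Sham the count of members called, 3 with edgeR, was 5 with no scaling factor, 5 with no filter, 12 with DESeq2, 14 with limma on TPM, 0 with segments summed by family and 0 to 8 with a library left out. In MI-E against MI the count, 0 with edgeR, was 8 with DESeq2, 2 with limma on TPM and 0 to 4 with a library left out. DESeq2 called 1 member in Sham-E against Sham, 1 in MI-E against Sham-E and 4 in the interaction; limma called 1 in the interaction, and leaving out a library gave 0 to 1. For summed Igkv level, MI against Sham, the log2 ratio was −1.195 in TPM. For summed Iglv level, MI against Sham, it was −2.473 without the most counted Iglv segment of each library. That segment was Iglv2 in Sham 3 and Iglv1 in the other Sham and all MI libraries. The value thus sets different segments against each other and does not test the lambda difference. With the replicate block on the column number, 0 members were called in MI against Sham. Deviations of same-numbered libraries correlated at −0.295 to 0.261 over 13 pairs, 5 of them over 0.1, and 2 of 12 libraries correlated best with their own number, so the numbers were not taken to pair the libraries.

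In MI against Sham the values that changed sign were those of Igkv4-59 (−0.016 with no scaling factor, −0.32 with limma on TPM, −0.060 with the replicate block, −0.057 to 0.20 with a library left out), Igkv8-28 (−0.77 with limma, −0.58 to 0.65 with a library left out), Igkv16-104 (−0.0775 with no scaling factor, −0.52 with limma, −0.14 with the replicate block, −0.47 to 0.36 with a library left out), Igkv10-96 (−0.10 with no scaling factor, −0.68 with limma, −0.37 to 0.42 with a library left out) and Igkc (−0.31 to 0.024 with a library left out). In MI-E against MI they were Igkv8-30 (0.28 with limma, 0.10 with the replicate block, −0.75 to 0.93 with a library left out) and, with a library left out, Igkv5-45 (−1.32 to 0.58), Igkv3-7 (−0.69 to 0.11) and Igkc (−0.25 to 0.085). Each library held 272 to 1904 lambda V counts, so the levels of single segments carry wide counting error.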
